A study of Homo sapiens with 26 samples.

Results

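Chromosome 10 was described from 1290 bins of 100 kb, the bins of that chromosome that had a value above 0 in at least 1 of 26 single cells. The chromosome has 1356 bins in the table, of which 49 had no value in any cell and 17 were 0 in all cells. The 1290 that remained make up 4.90% of the 26331 bins of the genome used in the same way. No used bin lay on chromosome 8, so the genome, the other autosomes and the chromosome ends named below leave it out. The cells were haploid (1N) cells of clone 5-8 of KBM7, a human leukaemia line with a nearly haploid genome. All expressed Dam without a fusion partner and were exposed to 0.5 nM Shield1, the ligand that stabilises the enzyme, for 15 h. Single cells were taken from the smallest 2% of those positive for both markers of the Fucci cell cycle reporter. The series title names LaminB1, but the labels of all 26 cells name Dam alone. There is no second condition and only 1 clone, so an SD describes how cells of 1 clone differ, comparisons are made within a cell between stretches of its genome, and no p-value was computed. The text gives instead how many cells lay above and below, and a band or contrast counts as placed above or below where 21 or more of the 26 cells were on that side.

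Dam is a bacterial methyltransferase that marks the adenine of GATC wherever it can reach the DNA, so untethered Dam reads open chromatin and passes over compact chromatin. Human chromosomes alternate between light and dark Giemsa bands. Light bands are rich in genes and early in replication, and the darkest bands are poor in genes, late in replication and often held at the nuclear lamina.

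The letters that the assay reads can be seen in 2 promoters from RefSeq (build GRCh38.p14), shown because their genes lie in the bands that proved highest and lowest. NFKB2, a subunit of the transcription factor NF-kB, belongs to 10q24.32 and its window is at chr10:102393860-102394159 on the plus strand. PCDH15, a protocadherin of inner ear hair cells, belongs to 10q21.1 and its window is at chr10:54801182-54801481 on the minus strand. Capitals mark GATC, which reads the same on both strands. Each window of 300 bases holds 1 such site, and 41.1% of 1680 promoters of chromosome 10 and 41.7% of all 35116 promoters hold at least 1. The deposited bins are in hg19, so these windows were not placed in bins and carry no value of their own.
NFKB2: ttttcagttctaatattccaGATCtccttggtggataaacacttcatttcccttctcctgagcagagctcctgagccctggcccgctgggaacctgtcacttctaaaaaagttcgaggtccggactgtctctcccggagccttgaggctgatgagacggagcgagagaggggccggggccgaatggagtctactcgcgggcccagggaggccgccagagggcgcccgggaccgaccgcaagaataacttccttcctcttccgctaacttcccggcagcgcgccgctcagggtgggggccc
PCDH15: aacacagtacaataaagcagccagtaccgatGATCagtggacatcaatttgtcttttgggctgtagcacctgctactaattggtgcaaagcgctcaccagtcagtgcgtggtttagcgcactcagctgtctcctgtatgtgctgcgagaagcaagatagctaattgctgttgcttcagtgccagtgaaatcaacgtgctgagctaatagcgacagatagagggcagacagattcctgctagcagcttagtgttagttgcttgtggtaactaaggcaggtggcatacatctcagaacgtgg

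The recovered counts on chromosome 10, the whole numbers that underlie the deposited ratios, had a median of 2424 per cell, a minimum of 1027 (cell 23) and a maximum of 8549 (cell 1), or 0.796 to 6.63 counts per bin. The genome-wide totals ran from 20182 to 178941. A single bin in a single cell therefore rests on few counts, and levels are means over bands, ends or arms, relative to the mean of the same cell over all used bins unless another denominator is named. Cells 21 and 22 stood apart. Across 131 windows of 1 Mb of chromosome 10, the Spearman correlation of a cell with the mean of the other cells had a mean of 0.704 ± 0.221 (SD, n = 26), but was -0.26 in cell 22 and 0.476 in cell 21, and the other 24 cells lay between 0.544 and 0.902. Without both cells the mean was 0.765 ± 0.0937. These 2 cells had the lowest total counts, 20182 and 21105. All cells share 1 expectation per bin, and windows are not independent replicates.

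As a whole, chromosome 10 was close to the rest of the genome. Its mean ratio over that of all other autosomes with used bins was 1.04 ± 0.201 (SD, n = 26). The median cell was at 0.987, the lowest at 0.803 in cell 10 and the highest at 1.61 in cell 21. It was above 1 in 11 cells and below 1 in 15. Summed over the cells, its 75722 counts gave, after division by the expectation, 1.01 times the value of the other autosomes (exact 95% Poisson interval 1.00 to 1.01, for counting error only). Part of the high value of cell 21 came from 1 bin. At chr10:17800001-17900000 (hg19, 10p12.33) that cell had a ratio of 387.5, which was 19.0% of the sum of its chromosome 10 ratios. No other cell had a value there, so the count was taken as 1, the smallest possible. The matching expectation was 0.316% of the median bin. This bin is one of 43 on the chromosome whose expectation was below 0.5 times the median. Without them the level was 1.04 ± 0.178, and the highest cell was cell 20 at 1.47. Over all used bins but without cells 21 and 22 it was 0.999 ± 0.150 (n = 24).

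Levels differed widely between the bands of the chromosome. Of 41 bands with used bins, 10 were above 1 in at least 21 cells, 10 were below 1 in at least 21 cells and 21 were on neither side. The bands above 1 were 10q22.1, 10q22.2, all of 10q24 but 10q24.2, 10q26.11, 10p15.1, 10p11.23 and 10p11.22. The bands below 1 were the 4 darkest, 10q21.1, 10q21.3, 10q23.1 and 10q25.1, together with 10q25.3, 3 bands of 10q26, and 10p15.3. The remaining low band, 10p12.32, was a single bin with 29 counts. Without cells 21 and 22, 11 bands were placed above 1 and 10 below.

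**Figure D1:**
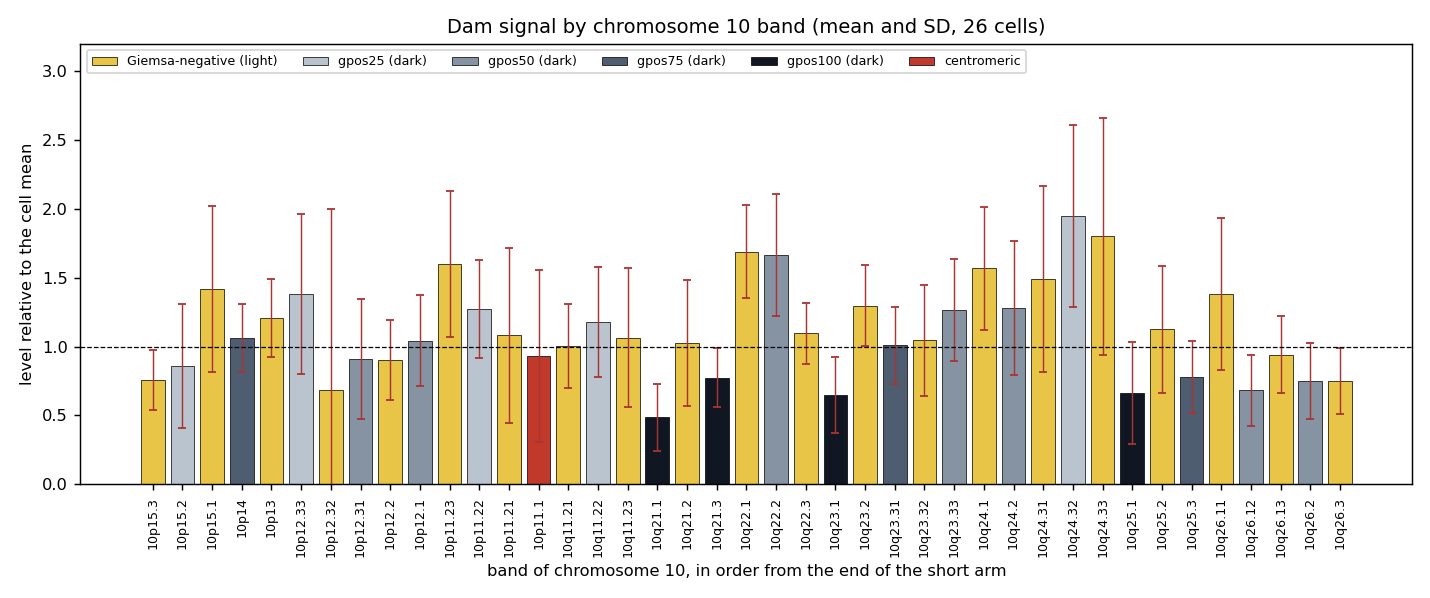
Mean level of each band of chromosome 10 relative to the cell mean (bars, in order from the end of the short arm), with the SD between 26 cells, over bins with an expectation of at least 0.5 times the median. Colours give the Giemsa stain. The darkest bands sit below 1, at 0.486 in 10q21.1 and 0.660 in 10q25.1, and 10q24.32 is tallest at 1.95.

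The highest band with at least 10 bins, once bins of low expectation were left out, was 10q24.32, which holds NFKB2, LDB1, a cofactor of erythroid and stem cell transcription complexes, and SUFU, an inhibitor of Hedgehog signalling. It averaged 1.95 ± 0.660 (SD, n = 26 cells) over 19 bins, with a lowest cell at 0.516 (cell 22), a median of 1.89 and a highest at 4.12 (cell 21). It was above 1 in 25 cells. Next came 10q22.1 and 10q22.2. The band 10q22.1, home of the glucose-phosphorylating enzyme HK1, the lysosomal precursor PSAP, the cytotoxic protein PRF1 and the stress-induced mTOR inhibitor DDIT4, averaged 1.69 ± 0.340 over 43 bins and lay above 1 in 25 cells. The band 10q22.2, which holds the adhesion protein VCL and the histone acetyltransferase KAT6B, averaged 1.70 ± 0.430 over 28 bins and lay above 1 in 24 cells. That value of 10q22.2 is over all used bins, and without its 1 bin of low expectation it averaged 1.67 ± 0.444. Over all used bins 10q22.1 and 10q22.2 were each the higher in 13 cells, so their order is not resolved. On the short arm the highest of the bands with at least 10 bins, again without bins of low expectation, was 10p11.23, which holds the kinase gene MAP3K8, at 1.60 ± 0.528 over 17 bins, above 1 in 24 cells. Over all used bins the short arm band 10p12.33 ranked first at 2.74 ± 7.66, with 40.2 in cell 21, but without its 1 bin of low expectation it averaged 1.38 ± 0.585 and lay above 1 in 19 cells.

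The lowest band was 10q21.1, the band of PCDH15 and of the Wnt inhibitor DKK1. Its 83 bins averaged 0.483 ± 0.247 (SD, n = 26), with a lowest cell at 0.228 (cell 8), a median of 0.431 and a highest at 1.51 (cell 22), and it was below 1 in 25 cells. Its counts, 2103 in all, gave 0.461 per unit of expectation (95% Poisson interval 0.441 to 0.481). Over all used bins it was lower than both neighbours in 26 of 26 cells. These were 10q11.23 on the centromeric side at 1.26 ± 0.522 and 10q21.2 on the other at 1.03 ± 0.460. Without its 5 bins of low expectation 10q11.23 averaged 1.07 ± 0.504 and was above 1 in only 12 cells. The next lowest were 10q23.1 at 0.651 ± 0.276 and 10q25.1 at 0.660 ± 0.371, each below 1 in 24 cells. The first holds NRG3 and GRID1, a growth factor and a receptor subunit of neurons, and the second holds the neuronal sorting receptors SORCS1 and SORCS3. The band 10q21.1 lay below 10q23.1 in 24 cells, whereas 10q23.1 lay below 10q25.1 in only 14.

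Stain class and level went together, but not in a simple light-to-dark order. Over bins with an expectation of at least 0.5 times the median, the level was 1.16 ± 0.154 in Giemsa-negative bands (556 bins), 1.39 ± 0.265 in the palest positive class gpos25 (80 bins), 1.09 ± 0.172 in gpos50 (212 bins), 0.959 ± 0.178 in gpos75 (132 bins) and 0.630 ± 0.252 in gpos100 (263 bins). The gpos25 bands were above the light bands in 25 of 26 cells, and gpos100 was below gpos75 in 25. The gpos25 class had 5 bands, and 19 of its 80 bins were those of 10q24.32, at 1.95. Its other bands ran from 0.858 in 10p15.2 to 1.38 in 10p12.33. The class was not compared with light bands without 10q24.32. Of 4 gpos100 bands all were placed below 1, and of 21 light bands 7 were placed above 1 and 3 below. Over the same bins the mean expectation, relative to the median bin, was 1.05 in light bands, 0.996 in gpos25, 1.02 in gpos50, 1.08 in gpos75 and 1.00 in gpos100, and its part in the levels was not tested.

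**Figure D2:**
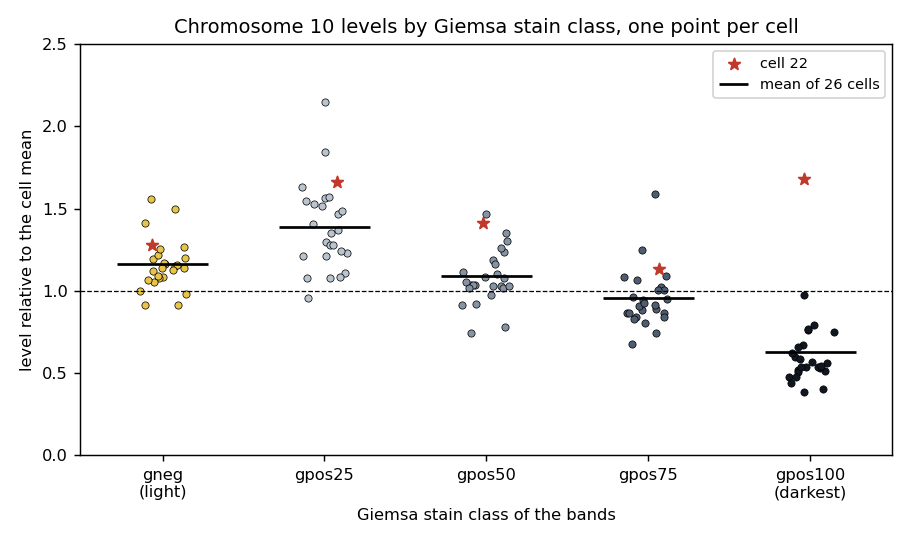
Level of chromosome 10 by Giemsa stain class, from light (gneg) to darkest (gpos100), with 1 point per cell, the mean as a line and cell 22 as a star, over bins with an expectation of at least 0.5 times the median. In gpos100 the 25 cells other than cell 22 lie between 0.386 and 0.971, and cell 22 lies at 1.68.

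Light bands together stood at 1.16 ± 0.154 and dark bands at 0.953 ± 0.235 over all used bins (SD, n = 26). The log2 ratio was 0.30 ± 0.19, a 1.23-fold difference, and was above 0 in 24 cells. The exceptions were cells 21 and 22, at -0.26 and -0.22. Without bins of low expectation cell 21 turned, with light bands at 1.49 and dark bands at 1.16, and 25 cells were above 0. Without these 2 cells it was 0.35 ± 0.10 and above 0 in 24 of 24, and without the 10p12.33 bin described above it was 0.32 ± 0.15. On the long arm light bands averaged 1.17 ± 0.177 and dark bands 0.882 ± 0.171, with a log2 ratio of 0.41 ± 0.23 that was above 0 in 25 cells. On the short arm both averaged 1.14 over all used bins. Dark bands there hold the 10p12.33 bin and reached 2.87 in cell 21. The log2 ratio was 0.04 ± 0.37, with cell 21 at -1.64, and light bands were higher in 20 cells. Without bins of low expectation it was 0.11 ± 0.14 and above 0 in 21 cells, which places light bands above. The short arm has no gpos100 band, and the difference between the arms was not tested.

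The segment 10q22 to 10q24 (chr10:70600001-105800000, 349 bins) was high relative to the rest of the chromosome. It was chosen with earlier results of these data known, so its values describe the segment and do not test it. It averaged 1.27 ± 0.198 (SD, n = 26), with a lowest cell at 0.898 (cell 22), a median of 1.26 and a highest at 1.83 (cell 20), against 0.961 ± 0.224 for the rest of the chromosome, whose lowest cell was at 0.675 and highest at 1.56. The 2 ranges overlap, but within a cell the segment was the higher one in 24 of 26, with a log2 ratio of 0.42 ± 0.32. The exceptions were cell 22 at -0.80 and cell 2 at -0.08. Without cell 22 the log2 ratio was 0.47 ± 0.20, and without cells 21 and 22 it was 0.49 ± 0.19. Summed counts gave 1.26 for the segment (95% Poisson interval 1.25 to 1.28, 25427 counts) and 0.924 for the rest (0.915 to 0.932, 50295 counts).

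The segment was not uniform. It consisted of 2 high parts, 10q22 at 1.48 ± 0.267 and 10q24 at 1.58 ± 0.427, each above 1 in 25 cells, on either side of 10q23 at 0.934 ± 0.171, which was below 1 in 20 cells. Both high parts exceeded 10q23 in 25 cells, by log2 ratios of 0.65 ± 0.43 and 0.74 ± 0.37. Their order was not resolved, with 10q22 the higher in 11 cells and 10q24 in 15. Of its 13 bands, 6 were placed above 1 and 1 below. Within 10q22, the band 10q22.3, with the ribosomal protein gene RPS24, the potassium channel gene KCNMA1 and ZMIZ1, stood at 1.12 ± 0.246 and was below 10q22.2 in 26 of 26 cells. Of the 5 bands of 10q23 only 10q23.1 was placed below 1. Among the others were 10q23.2 at 1.23 ± 0.383, 10q23.32 at 1.05 ± 0.404 and 10q23.33 at 1.24 ± 0.354, which holds the haematopoietic homeobox gene HHEX. In 10q24 the level was 1.57 ± 0.446 in 10q24.1, which holds BLNK, an adaptor of B cell receptor signalling, then 1.28 ± 0.486 in 10q24.2, 1.49 ± 0.677 in 10q24.31, 1.95 ± 0.660 in 10q24.32 and 1.80 ± 0.860 in 10q24.33 (9 bins). At the proximal border, 10q22.1 was higher than 10q21.3, which averaged 0.774 ± 0.212, in 25 cells. On the distal side 10q24.32 was higher than 10q25.1 in 25 cells, with the 9 bins of 10q24.33 between them.

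Along the short arm the band 10p14, which holds GATA3, a transcription factor of T cells, averaged 1.06 ± 0.248 (SD, n = 26) with cells on both sides of 1. The band 10p13, home of the intermediate filament gene VIM, averaged 1.20 ± 0.288 and was above 1 in 19 cells. Further in, 10p12.31 averaged 0.911 ± 0.437, 10p12.2, which holds the Polycomb gene BMI1, 0.900 ± 0.292, and 10p12.1 1.04 ± 0.330, and these 3 were on neither side. The band 10p11.23 was higher than 10p12.1 in 25 cells and higher than 10p11.22 in 22. The band 10p11.22, which holds the integrin gene ITGB1 and the kinesin gene KIF5B, averaged 1.27 ± 0.354 and was above 1 in 22 cells. The band 10p11.21 averaged 1.06 ± 0.669, with cell 22 at 4.10, and was below 1 in 18 cells.

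The arms as wholes lay close to the limit for a placed difference. The long arm averaged 1.01 ± 0.154 (904 bins) and the short arm 1.13 ± 0.300 (386 bins). The log2 ratio of 10q over 10p was -0.14 ± 0.20, with the long arm lower in 20 cells, 1 short of the 21 that place a side. It was lower in 21 cells without bins of low expectation, in 23 by the share of bins at a ratio of 1 or more and in 24 on the log2(ratio + 0.1) scale, but in only 15 over bins above 0 in at least 13 cells. Without cell 22, whose short arm was at 2.01, it was -0.11 ± 0.15. Cell 21 had 1.89 on the short arm over all used bins and 0.897 without bins of low expectation. Its log2 ratio of 10q over 10p went from -0.38 to 0.73, then the highest of all cells. Without those bins the short arm averaged 1.10 ± 0.259. The long arm outside 10q22 to 10q24 was lower than the short arm in 25 cells, at 0.841 ± 0.181 against 1.13 ± 0.300. This follows in part from the choice, since a segment known to be high was taken out of the long arm alone. Near the centromere the 10p11.1 band had only 10 used bins and 174 counts, with a mean expectation of 0.363 times the median, and 10q11.1 had no used bin. From 10q11.21 to 10q11.23, 20 of 80 bins had a low expectation, and the levels there moved when these were left out, 10q11.22 averaging 1.43 ± 0.749 with them and 1.18 ± 0.402 without.

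**Figure D3:**
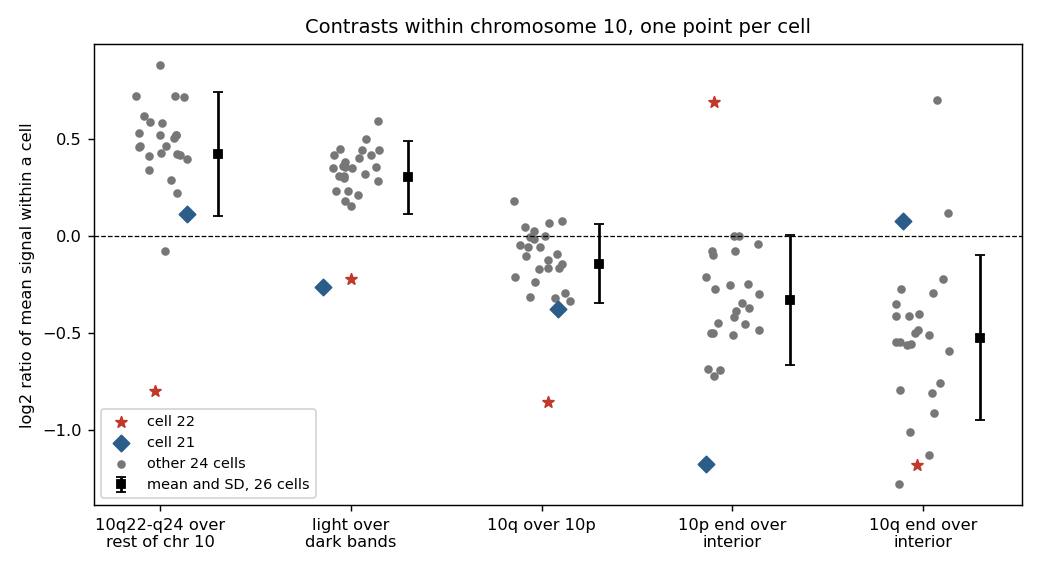
Log2 ratios of mean signal between parts of chromosome 10 within each cell, with 1 point per cell, cells 21 and 22 marked, and the mean and SD of 26 cells beside them. The 10q22 to 10q24 segment lies above 0 in 24 cells, and the ends of 10p and 10q lie below 0 in 24 and 23 cells.

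Both ends of the chromosome, also chosen with earlier results of these data known, were below its interior when taken as 5 Mb. The terminal 5 Mb of 10p (49 bins) averaged 0.874 ± 0.319 and that of 10q (51 bins) 0.770 ± 0.300, against 1.06 ± 0.192 for the interior between them (SD, n = 26). The 10p end ran from 0.517 in cell 10 over a median of 0.814 to 2.23 in cell 22, and the 10q end from 0.382 in cell 24 over a median of 0.705 to 1.71 in cell 21. Over the interior the log2 ratio was -0.33 ± 0.34 for the 10p end, below 0 in 24 cells, and -0.52 ± 0.43 for the 10q end, below 0 in 23 cells. Without cells 21 and 22 these were -0.34 ± 0.22 and -0.52 ± 0.40. The 10p end was no longer placed below under 4 alternatives, being below in 20 cells with an end of 2 Mb, in 20 with an end of 10 Mb, in 20 by the share of bins at a ratio of 1 or more and in 19 on the log2(ratio + 0.1) scale, whereas the 10q end lost its place only with an end of 2 Mb. The log2 ratio of the 10p end over the 10q end was 0.19 ± 0.63, less than its spread, with the 10p end the higher in 17 cells. Among 37 chromosome ends measured in the same way, 12 were placed below their interior and 14 above. The 10q end had rank 3 from the lowest by its log2 ratio, after the low-coordinate end of chromosome 2 at -0.63 ± 0.42 and the high-coordinate end of the derivative chromosome named 22:9 in the table, at -0.54 ± 0.31, and the 10p end had rank 10.

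On both arms the mean signal was lower some way in from the tip, in stretches chosen after the values per Mb were seen. On 10q the last 2 Mb averaged 1.05 ± 0.565, with cell 15 at 3.13, or 0.807 in that cell without bins of low expectation. The outermost Mb of 10q averaged 0.943 ± 1.01 but had a median of 0.666, with cell 15 at 5.35 and 22 cells below 1. The stretch from 2 to 5 Mb inside the end averaged 0.577 ± 0.238 (30 bins) and was below 1 in 24 cells. With the end taken as 2 Mb, the log2 ratio over the interior was -0.13 ± 0.64 and only 14 cells lay below 0. On 10p the first Mb averaged 0.972 ± 0.418, and the stretch from 1 to 3 Mb averaged 0.662 ± 0.177 (20 bins) and was below 1 in 25 cells. Signal then went up into 10p15.1, which holds the interleukin receptor gene IL2RA and the glycolytic regulator PFKFB3. The band 10p15.1 averaged 1.42 ± 0.601 and was higher than 10p15.3 in 25 cells. Between 10 and 11 Mb from the 10p end, inside 10p14, the level was 0.560 ± 0.194 and below 1 in all 26 cells, and in the next Mb it was 1.94 ± 0.709 and above 1 in 24.

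**Figure D4:**
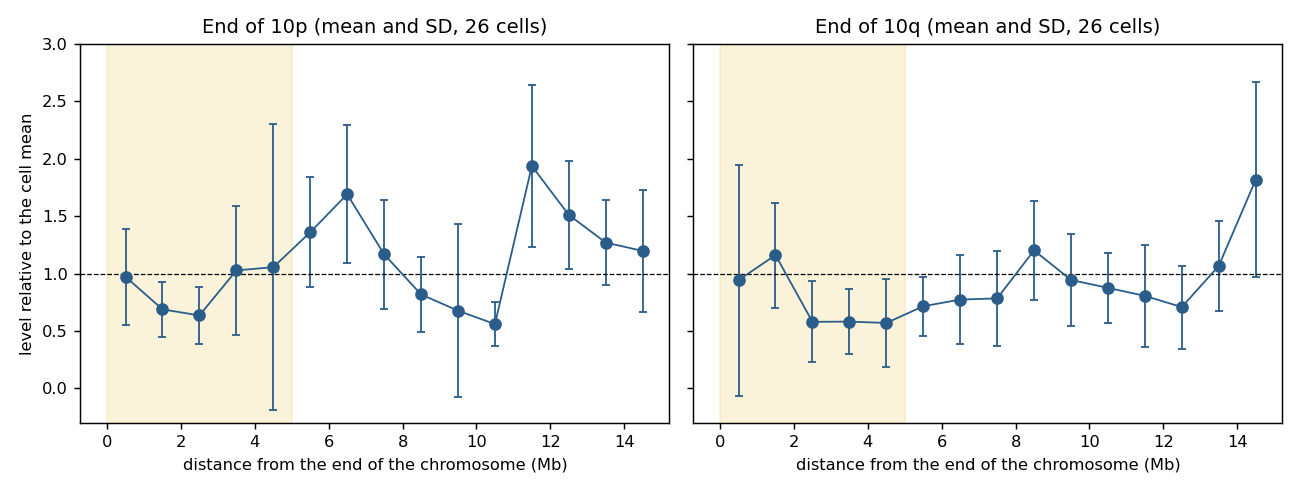
Level in steps of 1 Mb over the first 15 Mb from each end of chromosome 10, as mean and SD of 26 cells, with the terminal 5 Mb shaded. On 10q the steps between 2 and 5 Mb lie near 0.58 and those in the last 2 Mb at 0.943 and 1.16. The outermost 10q step has a median of 0.666, with cell 15 at 5.35. On 10p the step between 11 and 12 Mb is highest at 1.94.

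The low region of distal 10q reached further in than its terminal 5 Mb. The band 10q26.3, which holds the DNA repair gene MGMT and the oxidase gene CYP2E1, averaged 0.774 ± 0.307 and 10q26.2, which holds the proliferation marker gene MKI67, averaged 0.752 ± 0.261, below 1 in 23 and 24 cells. Further in, 10q26.13 averaged 0.941 ± 0.282 and 10q26.12 0.681 ± 0.258. The band 10q26.11, which holds the translation factor gene EIF3A and the peroxidase gene PRDX3, broke the run at 1.38 ± 0.550 and was above 1 in 22 cells. It was higher than each of its neighbours, 10q25.3 and 10q26.12, in 26 of 26 cells. Both ends lie mostly in light bands, and 10p15.3 at 0.758 ± 0.220 and 10q26.3 were 2 of the 3 light bands placed below 1. Outside the ends, the log2 ratio of light over dark bands was 0.38 ± 0.21.

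Bins were also counted one by one in every cell. A ratio of 1 or more counted as positive. Of the 1290 bins, 62 (4.81%) were positive in 80% or more of the cells, against a background of 5.61% over all used bins, and 360 (27.9%) were positive in at most 20% of cells, against 33.5%. The share of chromosome 10 that most cells marked was thus close to that of the genome. No bin was positive in all 26 cells and 2 were positive in none. The segment 10q22 to 10q24 held 27 of the 62 bins marked in most cells, 43.5% of them on 27.1% of the bins. Neither terminal 5 Mb held any. Of light bands 6.20% and of dark bands 3.72% of the bins were marked in most cells. In 10q21.1, 64 of 83 bins were positive in at most 20% of cells.

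The bins most often marked stood alone or in short runs. No run reached 5 bins. The longest, named after its values were seen, spanned 4 bins at chr10:104200001-104600000 in 10q24.32, with a level of 3.38 ± 1.47 (SD, n = 26) from 756 counts, a median of 3.24 and a value above 1 in 25 cells. The highest single bin of adequate expectation was chr10:11700001-11800000 in 10p14, at 4.81 ± 2.35 from 276 counts and positive in 25 cells. It had a value of 0 in cell 22 only. Second was chr10:74000001-74100000 in 10q22.1 at 3.71 ± 2.47, positive in 21 cells. The next region, chr10:104200001-104400000, lay inside the run above, at 3.65 ± 1.73. The other 5 of the 8 highest regions lay in 10q24.1, 10q24.32, 10q24.33, 10q22.1 and 10q25.2, 1 in each. The region in 10q25.2, chr10:111900001-112000000, averaged 3.28 ± 1.82 and was positive in 24 cells, at the border of the low band 10q25.1.

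The 360 bins marked in few cells fell into 151 runs. The longest spanned 33 bins at chr10:55400001-58700000 in 10q21.1, with a level of 0.367 ± 0.297 from 583 counts and a median cell at 0.336, below 1 in 25 cells. After an interruption of 1 bin a run of 9 bins followed at chr10:58800001-59700000, at 0.333 ± 0.207 and below 1 in all 26 cells. The next in length, 22 bins at chr10:66600001-68800000 in 10q21.3, averaged 0.375 ± 0.252, and 11 bins at chr10:82700001-83800000 in 10q23.1 averaged 0.448 ± 0.612 with cell 22 at 3.16. The shortest of the 5 longest runs was 7 bins at chr10:9100001-9800000 in 10p14, at 0.574 ± 0.737 with cell 22 at 4.02. Of the 8 lowest regions of adequate expectation, 5 were in 10q21.1, 2 in 10q21.3 and 1 in 10p15.3. The lowest, chr10:59200001-59300000, averaged 0.114 ± 0.307 from 8 counts in 4 cells, which is too few to rank it among its neighbours.

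**Figure D5:**
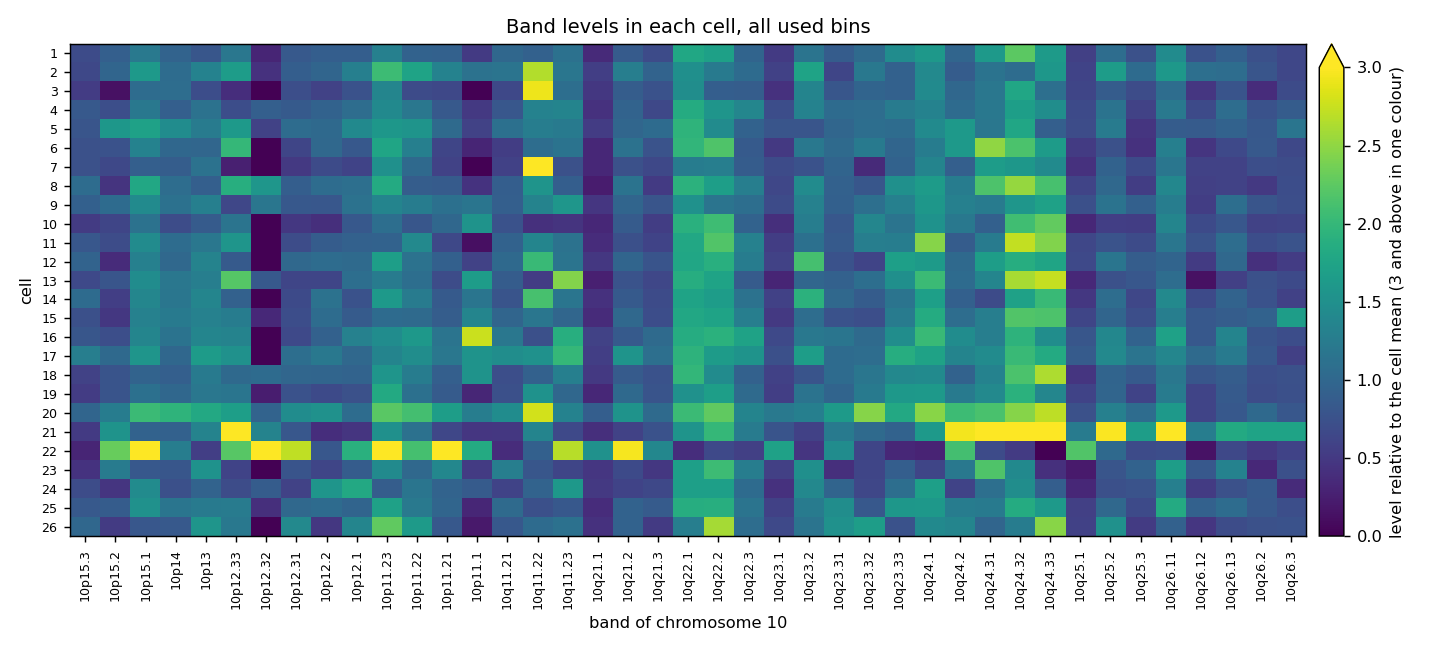
Level of each band of chromosome 10 (columns) in each of 26 cells (rows), relative to the cell mean, over all used bins. The columns 10q22.1, 10q22.2 and 10q24.32 are bright in nearly all rows and 10q21.1 is dark. Cell 22 departs from this in most columns, and cell 21 is bright from 10q24.2 onward.

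Cell 22 departed furthest from this map in several bands. It had 2.19 in 10q25.1, where the other 25 cells averaged 0.598 ± 0.205, and 0.389 in 10q22.1, where they averaged 1.74 ± 0.217 and all lay above 1. In 10q21.1 the other 25 averaged 0.445 ± 0.135 over bins of adequate expectation and all lay below 1. Cell 22 was the lowest of all cells in 13 of 41 bands, 9 of them within the 13 bands of 10q22 to 10q24, and the highest in 14. By the correlation across 1 Mb windows, cell 22 was the lowest cell on every chromosome measured except 19 and 22:9. Its values there ran from -0.32 on chromosome 21 to 0.29 on chromosome 15. The departure of cell 22 was thus not particular to chromosome 10. It had 1490 counts on chromosome 10, and the part of its low depth in these values was not tested.

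The mean correlation of 0.704 on chromosome 10 had rank 18 of 22 from the highest. The extremes were 0.545 on 22:9 and 0.807 on chromosome 12. The median over cells, which cell 22 moves less, was 0.766 on chromosome 10, against 0.604 on 22:9 and 0.837 on chromosome 12. The coefficient of variation between 1 Mb windows of chromosome 10 was 0.423, rank 19 of 22 from the highest. No test of these differences was made. Chromosomes differ in the number of windows, from 14 on 22:9 to 238 on chromosome 2.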

How the data were processed

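Single-cell DamID signal of 26 cells was taken from 1 deposited table. Its values are a linear ratio of observed over expected signal per 100 kb bin, as deposited by the authors. The unit was inferred from the table's label (OE) and its values, whose mean lies near 1 in each cell. Per the submitters' processing notes, the tools were cutadapt and Bowtie2 2.1.0 and the build was hg19. The sources used here do not say how counting, masking and the expectation were done. All 26 columns matched 1 sample each.

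The ratios were factored into whole counts, a factor per cell and a step per bin, which were whole to within 3.24e-07 at worst (tolerance 0.001). For bins with values in few cells these counts are the smallest possible. Whether PCR copies were told apart is not given, so intervals cover counting error only. Band limits and stains of hg19 and the bands of 63 named genes came from textbook knowledge. All 63 genes were found on chromosome 10 in RefSeq's table, in the order of their bands. Bins were placed by their centre.

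The bands, ends and lists were chosen with earlier results of these data known. Regions were named by rule: the 5 highest and 5 lowest bands with at least 10 bins, the 8 highest and 8 lowest regions from the 20 extreme bins, runs, and the bands of 10q22 to 10q24, 10p15 and 10q26. No test was used. Bins of low expectation had under 0.5 times the median. Alternatives covered bins, capping, scale, cells, depth (20000 counts), end length and stain classes. The procedures were tested on simulated data. The software was matplotlib 3.10.9, numpy 2.4.6, Python 3.11.15, scipy 1.17.1 and pandas 2.3.3.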

Additional observations from a re-analysis of the deposited data

How the results depend on the processing

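Of 135 recomputed values that answer a comparison, 125 stayed within 1 SD between cells, or within 1.5 times for counts. That SD was close in size to some contrasts, so the tally cannot show that a contrast held. The 10q end, for instance, went from -0.52 ± 0.43 to -0.13 with an end of 2 Mb. Only 14 cells were then below 0, yet it counted as within 1 SD. No contrast that the main setting placed on a side changed sign. A change of side was not scored for results on neither side. The level of chromosome 10 was among these, and its alternatives lay on both sides of 1. The log2 ratio of 10q22-q24 over the rest ran from 0.35 to 0.71 over 16 alternatives, that of the 10p end from -0.44 to -0.11 and that of the 10q end from -0.55 to -0.13, each over 16, and the cells below 0 numbered 19 or 20 of 26 for the 10p end under 4 of these. That of 10q over 10p ran from -0.19 to -0.04 over 13, the level of chromosome 10 from 0.978 to 1.08 over 14, and the similarity of cells from 0.608 to 0.788 over 9. Light over dark bands was 0.68 with only gpos75 and gpos100 as dark. On 10p alone it was 0.040 over all used bins and 0.11 without bins of low expectation. The number of bins marked in 80% or more of the cells became 232 when a ratio of 0.5 was enough (18.0% of the chromosome, 17.8% of all bins), 2 when it had to reach 2 (0.155% and 0.460%), and 97 without the 6 cells of lowest count (7.52% and 9.18%). The number marked in 20% or fewer became 69 with 0.5 (5.35% and 6.86%), 952 with 2 (73.8% and 75.1%), and 213 with every cell thinned to 20000 counts (16.5% and 19.4%). Bands placed above 1 numbered 6 with bins above 0 in at least 13 cells and 16 on the log2(ratio + 0.1) scale. On that scale the single bin of 10p12.32 had a level of 1.86, while 16 cells were below 1. The causes were not tested. Leaving out cell 21, cells 21 and 22 or the bin carried by cell 21, and recomputing band counts and similarity, were chosen after seeing the data. The cells form 1 group, so there was no second group to pair samples with, and all contrasts were made within each cell. Depth limits the values of single bins in single cells.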

Other observations

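In cell 21 the distal long arm stood apart from the rest of its chromosome 10, a pattern found after the values were seen. From 10q24.2 to the end of 10q, over 359 bins of adequate expectation, that cell had a level of 2.25, against 0.937 ± 0.111 (SD) in the other 25 cells, whose highest was cell 20 at 1.20. This is 2.40 times the mean of the others. Whether it reflects access to the DNA or the number of its copies in that cell was not tested, so the level there cannot be read as access alone. On the remaining 888 bins cell 21 was at 0.931, against 1.05 ± 0.185 in the others, 0.884 times their mean. It was the highest of all cells in 11 of the 12 bands from 10q24.2 onward, light and dark, and in 1 of the 29 other bands. The distal part rested on 691 counts and gave 2.26 after division by the expectation (exact 95% Poisson interval 2.10 to 2.44, counting error only), and the rest on 686 counts at 0.977 (0.906 to 1.05). Within cell 21 the distal bands still differed, with 4.12 in 10q24.32, 3.74 in 10q26.11 and 1.25 in 10q25.1.

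Cell 20 was the highest cell in 6 bands, and its chromosome 10 as a whole was at 1.48 times the other autosomes.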
